A study of Mus musculus with 6 samples.

Results

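The genes described here encode the SR, hnRNP and SF3 splicing factors, followed in mouse bone marrow cells that were sorted as LT-HSCs, the long-term stem cells at the root of blood formation. They were taken by symbol, as Srsf followed by a number, Hnrnp, or Sf3a or Sf3b followed by a number, without pseudogene symbols, and had to reach 1 FPKM (fragments per kilobase of transcript, scaled to library size) in at least 3 libraries. The symbols matched 40 genes, of which 39 passed, among 10676 genes that passed in all. They are 10 SR, 20 hnRNP and 9 SF3 genes. The gene that did not pass was Srsf12, at 0.127 to 0.281 FPKM in the 6 libraries.

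The mice were wild type, and for 3 months they ate either a control diet, here CD with 3 libraries, or one high in cholesterol, here HCD with 3 libraries. Sorted cells were lineage negative, positive for KIT and SCA1 and negative for CD34 and CD135, per the series' design text. The sources used here do not give strain, age or sex, nor whether a library came from 1 animal or from a pool. The p-values therefore measure no more than the spread between these libraries, which may be technical. The gate's own transcripts did not all match it: Cd34 averaged 464 FPKM and Flt3 (CD135) 109 FPKM over the 6 libraries, beside 119.9 for Kit and 64.2 for Ly6a (SCA1).

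Introns are removed from pre-mRNA by the spliceosome, which assembles anew on each intron from small nuclear ribonucleoproteins (snRNPs) and many accessory proteins. SR proteins carry an RNA-recognition motif and a domain rich in arginine and serine, bind exonic enhancers and mostly favour recognition of the exon. hnRNPs coat the nascent transcript and often act against SR proteins at the same exons, while the SF3a and SF3b complexes belong to the U2 snRNP and anchor it at the branch point. In human blood disease, SF3B1 and SRSF2 are recurrent targets of mutation in the stem cells of myelodysplastic syndromes. Many SR and hnRNP genes limit their own output by splicing a stop-carrying exon into their mRNA, which is then destroyed by nonsense-mediated decay.

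In the GENCODE vM21 annotation, 20 of the 39 genes had a transcript of the nonsense-mediated decay class (51.3%), against 30.5% of the tested protein-coding genes, and 29 of 39 had a transcript with a retained intron (74.4%, against 61.9%). The deposited values are 1 level per gene, so productive and decay-prone transcripts of a gene cannot be told apart here.

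The promoter sequences of 5 genes are shown because these were the members whose fall under HCD, given below, passed the test under the main setting and under all 15 alternatives. Each is the 250 bases before the RefSeq transcription start on GRCm38.p6, 5′ to 3′, with capitals at matches on either strand to the CCAAT box (CCAAT), the GC box (GGGCGG) or the TATA box (TATAAA). An ETS site (CCGGAAG) and an E-box (CACGTG) were searched as well, without a match in these 5 windows. GC box matches that overlap were counted separately.
Hnrnpc (chr14:52104022-52104271, minus strand): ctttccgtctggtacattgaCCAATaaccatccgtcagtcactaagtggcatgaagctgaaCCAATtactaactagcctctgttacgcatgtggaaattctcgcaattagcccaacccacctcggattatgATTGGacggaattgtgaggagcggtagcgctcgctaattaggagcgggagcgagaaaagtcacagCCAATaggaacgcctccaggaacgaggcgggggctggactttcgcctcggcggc
Hnrnpu (chr1:178337816-178338065, minus strand): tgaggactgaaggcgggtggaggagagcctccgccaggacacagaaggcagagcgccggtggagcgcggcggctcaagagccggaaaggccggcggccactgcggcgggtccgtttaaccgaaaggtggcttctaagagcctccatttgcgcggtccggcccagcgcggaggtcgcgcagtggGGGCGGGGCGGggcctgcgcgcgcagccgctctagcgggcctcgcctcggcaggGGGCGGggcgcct
Srsf1 (chr11:88047123-88047372, plus strand): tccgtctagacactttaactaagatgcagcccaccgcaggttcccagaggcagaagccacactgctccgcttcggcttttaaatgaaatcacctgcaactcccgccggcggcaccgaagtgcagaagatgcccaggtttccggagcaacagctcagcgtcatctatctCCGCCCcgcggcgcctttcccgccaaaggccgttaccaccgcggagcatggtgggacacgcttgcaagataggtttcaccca
Srsf10 (chr4:135855821-135856070, plus strand): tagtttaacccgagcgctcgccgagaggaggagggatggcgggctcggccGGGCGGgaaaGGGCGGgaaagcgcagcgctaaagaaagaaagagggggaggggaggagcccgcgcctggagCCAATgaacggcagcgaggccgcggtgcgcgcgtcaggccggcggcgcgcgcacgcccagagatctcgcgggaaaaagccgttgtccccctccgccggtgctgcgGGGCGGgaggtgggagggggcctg
Srsf3 (chr17:29032410-29032659, plus strand): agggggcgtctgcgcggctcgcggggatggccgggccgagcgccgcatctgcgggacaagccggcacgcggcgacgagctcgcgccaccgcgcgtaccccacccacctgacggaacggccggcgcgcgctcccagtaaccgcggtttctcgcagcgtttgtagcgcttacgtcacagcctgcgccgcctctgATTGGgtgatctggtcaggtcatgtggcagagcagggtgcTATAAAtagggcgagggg
The 5 promoters differed in these letters. Hnrnpc held 4 CCAAT boxes and no GC box, Hnrnpu held 3 GC boxes and no CCAAT box, Srsf1 held 1 GC box, Srsf10 held 3 GC boxes and 1 CCAAT box, and Srsf3 held 1 CCAAT box and a TATA box. Over the 48 listed promoters of 35 members, 36 (75%) held a GC box, against 32.7% of all 32851 promoter windows of that length. A CCAAT box was found in 47.9% (33.8% of all windows), the ETS site in 33.3% (6.91%), a TATA box in 8.33% (12.4%) and an E-box in 6.25% (6.02%). The members' windows were also richer in G and C, with a median of 63.8% against 52.4%. All listed windows served as background, whether or not their gene was among the tested genes. These shares therefore do not set the members against expressed genes alone. Some genes have several listed starts, and a match describes letters, not a bound factor.

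The libraries held an estimated 18830000 to 19980000 reads or fragments each, from the size of 1 read in the lowest values, and FPKM sums of 427219 to 462370. At that depth the members had about 800 to 28100 reads per library, and counting error alone was 0.631% to 3.53% of a value. For genes with 100 to 1000 reads, the median squared difference between CD libraries was 1.96 to 2.31 times what sampling gives, and between HCD replicates 1 and 3 it was 2.11 times. It was 5.68 times between HCD replicates 2 and 1 and 6.41 times between HCD replicates 2 and 3. HCD replicate 2 therefore stands apart, and results that rest on it are given with and without it.

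The hnRNP genes spanned the widest range of levels, and even the lowest of the 39 genes, Hnrnpll, ranked above 75.7% of the tested genes counting itself. Hnrnpa1, which encodes a repressor of many exons, was highest at 789 ± 24.0 FPKM (SD, n = 6), at the 99.3 percentile of the tested genes. Its values were 757, 768 and 777 FPKM under CD and 809.8, 811 and 808 under HCD. The groups did not overlap, but the difference of 0.08 ± 0.04 (SE) on the log2(FPKM + 1) scale did not pass (limma adjusted p = 0.273), and with quantile normalization it was -0.10. Exact stretches of 75 bases shared with other annotated genes make up 44.4% of its transcript. After it came Hnrnpa2b1 at 458 ± 18.0 FPKM and Hnrnpab at 394 ± 19.2. Hnrnpk (269.5 ± 5.53), Hnrnph1 (252 ± 38.6), Hnrnpm (242 ± 23.0) and Hnrnpa0 (237 ± 10.3) followed, and neighbours in that order did not differ beyond their spread.

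The middle of the hnRNP order held Hnrnpf (146 ± 8.82 FPKM), Hnrnpl (138 ± 4.82), Hnrnpc (119 ± 15.97), Hnrnpu (113 ± 14.7), Hnrnpul1 (98.2 ± 3.84), Hnrnpul2 (87.6 ± 2.73) and Hnrnph2 (75.5 ± 5.48). Hnrnpf and Hnrnpl, and likewise Hnrnpc and Hnrnpu, lay within each other's spread. Hnrnpdl (63.0 ± 7.46 FPKM) and Hnrnpd (57.1 ± 2.50) were lower and did not differ beyond their spread. Hnrnpa3 (34.0 FPKM), Hnrnph3 (31.0), Hnrnpr (29.9) and Hnrnpll (29.4) were lowest and not apart beyond their spread. Hnrnpll is known in lymphocytes for its control of CD45 splicing.

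Among SR genes Srsf5 was highest, at 317 ± 58.0 FPKM over the 6 libraries, then Srsf3 at 197 ± 18.5. Srsf2, Srsf7 and Srsf6 lay within each other's spread at 139 ± 9.69, 134 ± 26.0 and 129 ± 16.3 FPKM, above Srsf1 at 91.9 ± 10.6. Srsf4 (48.8 FPKM), Srsf9 (38.0), Srsf11 (33.6) and Srsf10 (31.5) were the lowest.

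The SF3 genes were more alike. Sf3b2, whose product contacts the pre-mRNA beside the branch point, stood alone at 158 ± 5.87 FPKM. Its values were 162, 162 and 159.7 FPKM under CD and 154, 163 and 148 under HCD, so the groups overlapped, and the difference of -0.06 ± 0.05 (SE) in log2 did not pass (limma adjusted p = 0.444). Sf3b1 (77.2 FPKM), Sf3b5 (75.6), Sf3b6 (74.7), Sf3a3 (72.7) and Sf3b3 (68.5) formed a middle group with SDs of 3.30 to 8.07, and Sf3a2 (53.8), Sf3a1 (50.7) and Sf3b4 (46.4) a lower one. The SF3a subunits help to join the parts of the U2 snRNP.

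**Figure D1:**
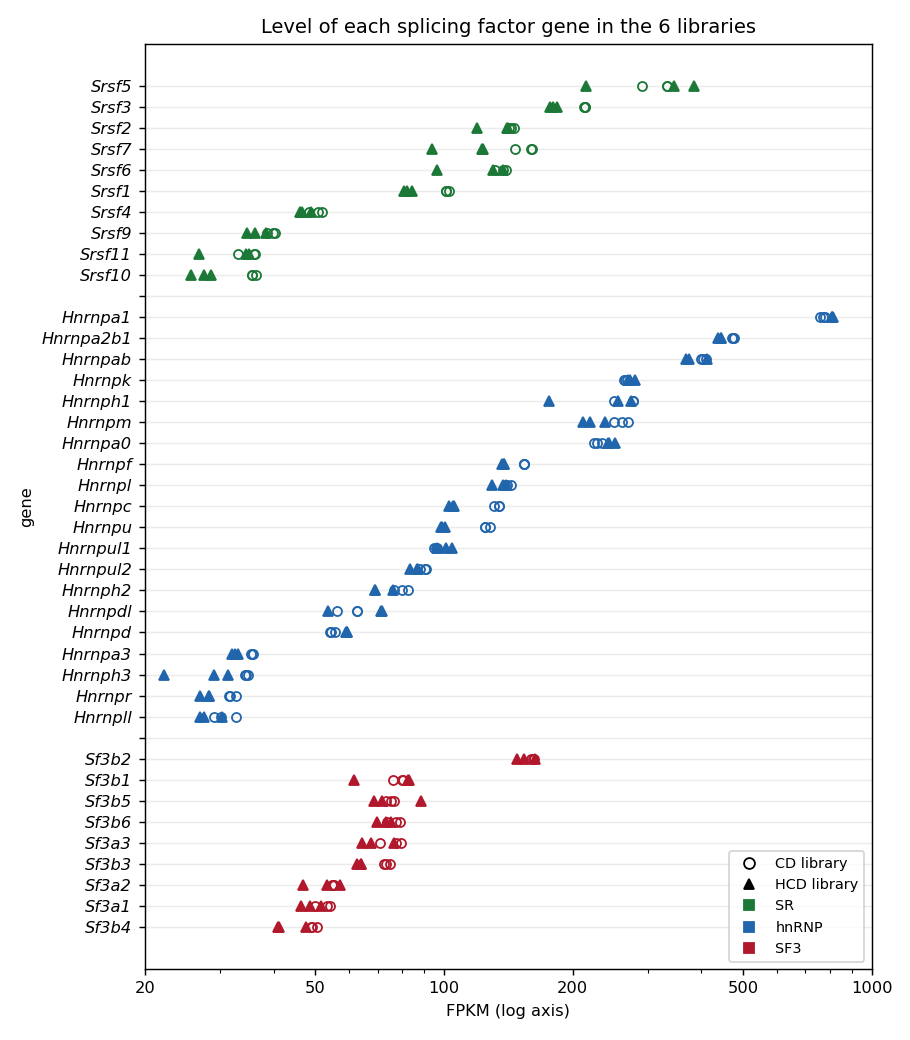
Level of each of the 39 genes in FPKM (log axis), by family and ordered by mean; open circles are the 3 CD libraries and triangles the 3 HCD libraries. Hnrnpa1 is highest near 789 FPKM, and in Srsf1, Srsf3, Srsf10, Hnrnpc and Hnrnpu all triangles lie left of all circles.

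The comparison of HCD with CD addresses which of these transcripts changed with the diet in the sorted cells. Under HCD, 10 of the 39 genes fell and 0 rose. The fallers were the SR genes Srsf1, Srsf3, Srsf7 and Srsf10, the hnRNP genes Hnrnpc, Hnrnpu, Hnrnpf, Hnrnpm and Hnrnpr, and the SF3b gene Sf3b3. The smallest of these changes was that of Hnrnpf, whose mean fell by 10.5%, and the largest was that of Srsf7, whose mean fell by 27.2%, so each was well under 2-fold. In bulk samples, fewer cells of a type and less RNA per cell cannot be told apart. The test was limma on log2(FPKM + 1) over all 10676 genes, with Benjamini-Hochberg adjustment and a threshold of 0.05.

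Called genes made up 25.6% of the members, against 13.9% of all tested genes (1488, of which 670 rose and 818 fell). By direction the background was 7.66% lower and 6.28% higher. With a filter of 5 FPKM, 10 members and 1282 of 8286 genes were called, 735 of the latter lower. All members ranked at or above the 75.7 percentile in level, so these shares do not set them against genes of like level. After removal of the transcript length trend, the split over all genes was 765 higher and 573 lower. It was 745 and 615 with factors from the trimmed mean of M values, and 821 and 829 with quantile normalization. At an unadjusted p under 0.05, 2 members were higher and 16 lower, beside 12.6% and 18.3% of all tested genes. The log2 change was below 0 in 32 of the 39, against 57.9% of all tested genes, with a median of -0.11 against -0.03. Without HCD replicate 2 the medians were -0.095 and -0.018.

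The count depended on the libraries used. It was 5, all lower, when CD replicate 1, 2 or 3 was left out, where 4.11%, 5.21% and 4.81% of all tested genes were called (1.7%, 2.3% and 2.1% lower). It was 7 without HCD replicate 1, beside 6.66% of all genes (3.26% lower), and 8 without HCD replicate 3, beside 10.4% (5.55% lower), again all lower. It was 19 without HCD replicate 2, 16 lower and 3 higher, where 25.4% of all tested genes were called, 14.1% lower and 11.3% higher. Hnrnpc, Hnrnpu, Srsf1, Srsf10 and Srsf3 were called whichever single library was left out.

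**Figure D2:**
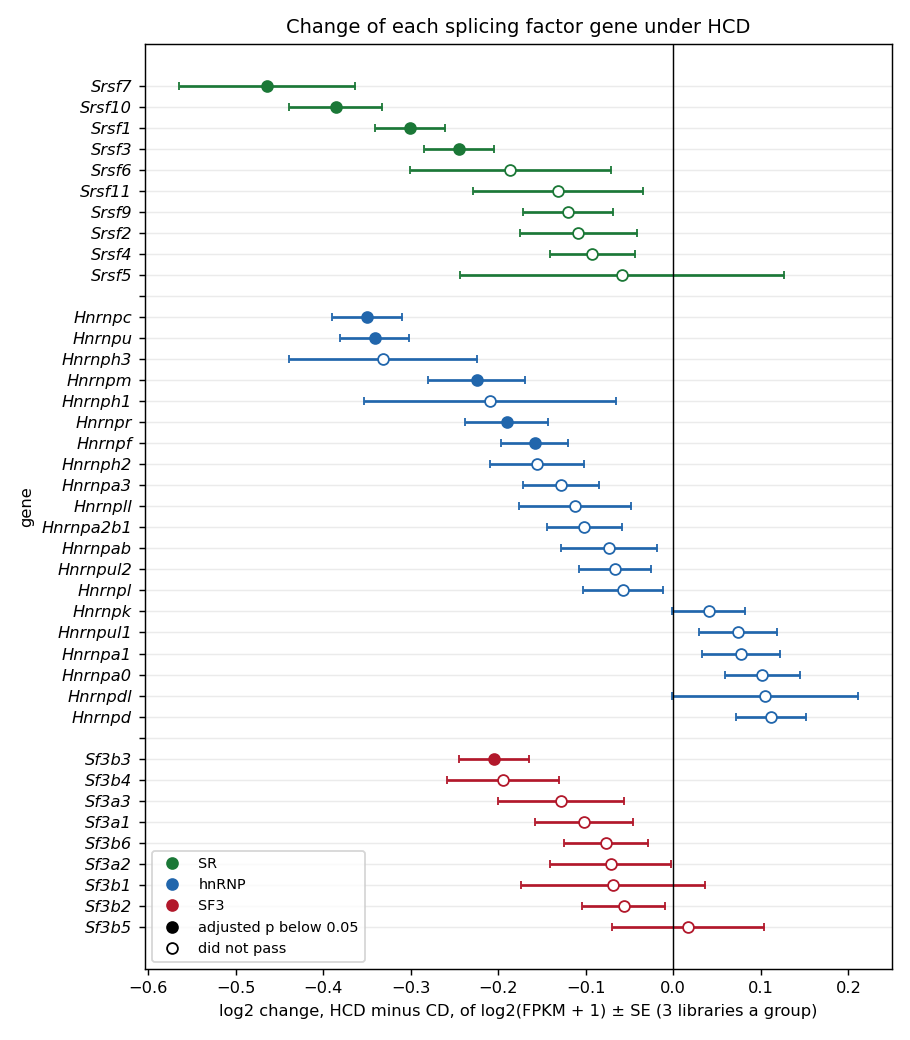
Change of each gene as HCD minus CD in log2(FPKM + 1), with its standard error from limma (3 libraries a group); filled points passed an adjusted p of 0.05. The 10 filled points all lie left of 0, from -0.46 for Srsf7 to -0.16 for Hnrnpf, and the points right of 0 are open.

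Among SR genes, 4 of 10 fell, beside 7.66% of all tested genes. All 10 had a log2 change below 0, beside 57.9% of all tested genes, although that of Srsf5 was above 0 without HCD replicate 2. Their median log2 change was -0.16 with all libraries and -0.095 without HCD replicate 2. Srsf1 encodes the founding member of the family, an activator that favours exon inclusion. It had 101, 101 and 103 FPKM under CD and 84.3, 81.9 and 80.7 under HCD. The groups were far apart beside their spread, and the gene fell by 19.0%, from 102 ± 0.84 (SD, n = 3) to 82.3 ± 1.81 FPKM (log2 change -0.30, limma adjusted p = 0.00311). Srsf1 lies on chromosome 11 (88047373 to 88053755, GRCm38).

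Srsf3, whose product also serves in mRNA export, had 214, 214 and 213 FPKM under CD and 180.2, 177 and 183 under HCD. All HCD libraries lay below all CD libraries, and the fall was 0.25 ± 0.04 (SE) in log2 (limma adjusted p = 0.00738; chromosome 17, 29032628 to 29043373). Of its transcript, 25.2% is held in exact stretches of 75 bases by other annotated genes, so reads there could have been split with them.

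Srsf10, an SR-like factor known to turn into a general splicing repressor when dephosphorylated, as in heat shock, had 35.7, 36.3 and 35.5 FPKM under CD and 27.5, 25.6 and 28.6 under HCD. It fell by 24.0% in its mean (log2 change -0.39, limma adjusted p = 0.00358; chromosome 4, 135855747 to 135869908). Srsf7, an SR protein with a zinc knuckle, had 161, 146 and 159 FPKM under CD and 123, 93.7 and 123 under HCD. It had the largest drop of the 39 genes on the log2(FPKM + 1) scale, at -0.46 ± 0.10 (SE; limma adjusted p = 0.0199; chromosome 17, 80200080 to 80207307). Replicate 2 was the lowest library in both diets, and without HCD replicate 2 the change was -0.33 (adjusted p = 0.000743 by limma). The call was lost without CD replicate 1, 2 or 3 (limma adjusted p = 0.087, 0.0529 and 0.0854) and with no filter on low genes (limma adjusted p = 0.0559).

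The other SR genes, Srsf2, Srsf4, Srsf5, Srsf6, Srsf9 and Srsf11, did not pass. Srsf9 and Srsf2 had groups that did not overlap, with Srsf9 at 39.8, 40.3 and 38.7 FPKM under CD and 34.6, 36.2 and 38.4 under HCD (limma adjusted p = 0.156). In the sum over the 10 SR genes, CD libraries had 1254, 1184 and 1253 FPKM and HCD libraries 1150, 918 and 1197. HCD replicate 2 alone was far below the rest, and the groups overlapped.

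Among hnRNP genes 5 of 20 fell (25%), beside 7.66% of all tested genes. With factors from the trimmed mean of M values 2 fell, beside 615 of all 10676 tested genes. Without CD replicate 1, 2 or 3 the count was also 2 lower, beside 1.7%, 2.3% and 2.1%. Without HCD replicate 1 it was 2 lower, beside 3.26%. Without HCD replicate 2, 10 were lower and 2 higher, beside 14.1% and 11.3%. The 6 with a log2 change above 0 were Hnrnpa0, Hnrnpa1, Hnrnpd, Hnrnpdl, Hnrnpk and Hnrnpul1. Of these, Hnrnpa1 and Hnrnpk were below 0 with quantile normalization. Hnrnpc had the smallest p of the 39 genes. Its product binds uridine tracts and competes with the splicing factor U2AF for them. Hnrnpc had 135, 131 and 135 FPKM under CD and 106, 105 and 103 under HCD. It fell by 21.7%, from 133 ± 2.14 to 105 ± 1.59 FPKM (SD, n = 3; log2 change -0.35, limma adjusted p = 0.00163; chromosome 14, 52073377 to 52104028). Exact stretches of 75 bases shared with other genes made up 5.95% of its transcript.

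Hnrnpu encodes a nuclear scaffold protein that binds RNA and chromatin. Its values were 125, 125 and 128 FPKM under CD and 98.5, 98.9 and 100.5 under HCD. It fell by 21.2% (log2 change -0.34 ± 0.04 SE, limma adjusted p = 0.00173; chromosome 1, 178321108 to 178337797). Hnrnpu has a long transcript, of 7640 bases, and its change was -0.21 once the length trend was removed (limma adjusted p = 0.0291). It overlaps Cox20 on the opposite strand by 804 exonic bases, and Cox20 was at 17.9 FPKM over the 6 libraries.

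Hnrnpm had 261, 269.5 and 250.5 FPKM under CD and 212, 237 and 219 under HCD, with no overlap (log2 change -0.22, limma adjusted p = 0.0311; chromosome 17, 33646233 to 33686860). Of its transcript, 28.4% also belongs to transcripts annotated to March2 on the same strand. March2 had no row among those kept, so its level was not compared. Rows whose symbol had turned into a date were left out, and a March2 row may be among them. Hnrnpf, whose product binds G tracts, had 154 FPKM in each of the 3 CD libraries and 138, 137 and 138 under HCD (log2 change -0.16, limma adjusted p = 0.0289; chromosome 6, 117900324 to 117925622). Exact stretches shared with other genes made up 46.4% of its transcript. Hnrnpr, the relative of Syncrip, had 31.6, 31.4 and 32.7 FPKM under CD and 27.0, 28.3 and 28.3 under HCD (log2 change -0.19, limma adjusted p = 0.0332; chromosome 4, 136310942 to 136359447).

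These 3 calls were the least firm of the hnRNP family. With factors from the trimmed mean of M values (TMM) the limma adjusted p was 0.0946 for Hnrnpm, 0.101 for Hnrnpf and 0.0699 for Hnrnpr. Each was also lost when any single library other than HCD replicate 2 was left out. The limma adjusted p was then 0.0696 to 0.126 for Hnrnpm, 0.0583 to 0.12 for Hnrnpf and 0.0589 to 0.133 for Hnrnpr.

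Of the hnRNP genes that did not pass, Hnrnph3 came nearest. Its values were 34.3, 34.5 and 34.8 FPKM under CD and 29.0, 22.2 and 31.2 under HCD (log2 change -0.33, limma adjusted p = 0.075). The HCD libraries were all lower, with replicate 2 lowest. The replicate block brought it past the threshold (limma adjusted p = 0.0318), and without HCD replicate 2 its change was -0.19 (limma adjusted p = 0.0166). Hnrnpa3 had 35.5, 35.7 and 35.6 FPKM under CD and 32.0, 33.0 and 32.5 under HCD, without overlap, and a log2 change of -0.13 that did not pass (limma adjusted p = 0.0831).

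Members of the A and D subfamilies, related in sequence, lay on both sides of 0, and the following were named after their values were seen. Hnrnpd, which encodes the RNA decay factor AUF1, had 55.7, 54.5 and 54.3 FPKM under CD and 59.3, 59.4 and 59.2 under HCD. Hnrnpa0 had 234, 229 and 224 FPKM under CD and 252, 243 and 242 under HCD. In both genes all HCD libraries were above all CD libraries, and neither passed (limma adjusted p = 0.0985 and 0.146). Hnrnpa2b1 went the other way, with 471, 474 and 476 FPKM under CD and 444, 444 and 436 under HCD, as did Hnrnpa3 above. All its HCD libraries were below all CD libraries, and it did not pass (log2 change -0.10, limma adjusted p = 0.145). Groups that did not overlap were found in 5 members on the higher side and 18 on the lower side, beside 15.0% and 22.7% of all tested genes (37.7% in either direction).

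SRSF1 and hnRNP A1 are known to pull splice site choice in opposite directions, and the ratio of their levels is given for each library as a description. Srsf1 over Hnrnpa1 was 0.134, 0.132 and 0.132 under CD and 0.104, 0.101 and 0.0998 under HCD, on the FPKM scale. The ratio was lower in all 3 HCD libraries, with means of 0.132 ± 0.0011 and 0.102 ± 0.0022 (SD, n = 3). The pair was chosen after the values were seen, from 1 gene lower and 1 higher in every HCD library, which fixes this separation, so no test is given. The ratio of Hnrnph1 to Hnrnph2, also computed, was 3.61, 3.13 and 3.36 under CD and 3.70, 2.32 and 3.97 under HCD, and the groups overlapped.

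**Figure D3:**
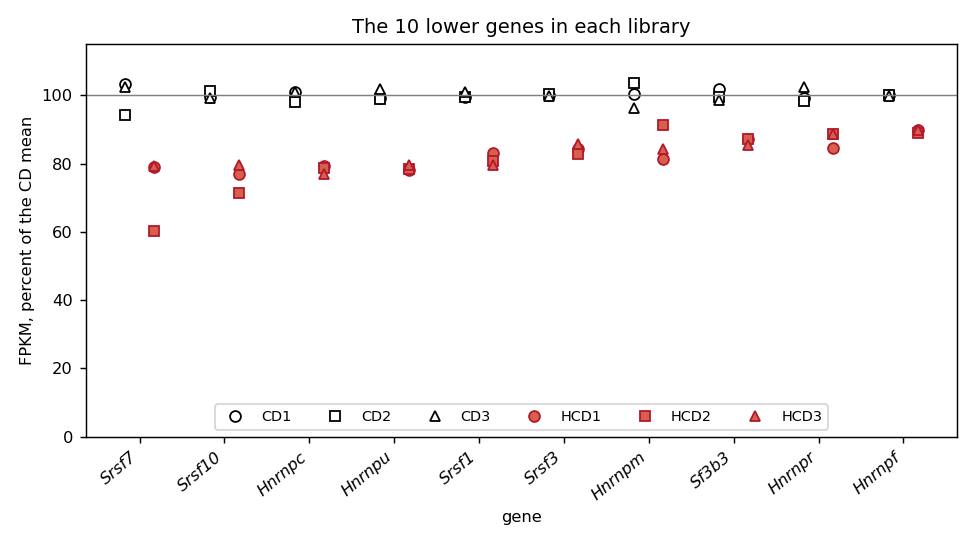
FPKM of the 10 genes that fell, as a percent of the gene's CD mean; open symbols are CD and filled symbols HCD libraries, with circles, squares and triangles for replicates 1, 2 and 3. All filled symbols lie below all open symbols of the same gene, and in Srsf7 the filled square of HCD replicate 2 (93.7 FPKM) lies apart from the other HCD libraries.

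In the SF3 family 1 of 9 genes fell, a share of 11.1%, beside 13.9% of all tested genes called and 7.66% lower. Sf3b3 encodes a large scaffold subunit of SF3b that also occurs in a chromatin acetylation complex. It had 74.7, 73.1 and 72.4 FPKM under CD and 63.9, 64.1 and 62.7 under HCD. The groups were separate and the fall was 0.20 ± 0.04 (SE) in log2 (limma adjusted p = 0.0135; chromosome 8, 110810239 to 110846787). The call was lost with the length trend removed (limma adjusted p = 0.0895), without CD replicate 1, 2 or 3 (0.0755, 0.0618 and 0.057 as limma adjusted p) and without HCD replicate 1 (limma adjusted p = 0.0507).

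Sf3b4, which encodes an RNA-binding subunit of SF3b, had 48.9, 50.6 and 49.1 FPKM under CD and 47.7, 41.1 and 40.9 under HCD. Its groups did not overlap and its log2 change of -0.19 did not pass (limma adjusted p = 0.0782), but it did without HCD replicate 1 (limma adjusted p = 0.0298). Exact stretches shared with the annotated gene Gm7935 made up 43.2% of its transcript. The groups overlapped in the other 7 SF3 genes, which include Sf3b1. Summed over the 9 genes, the level was 694, 700.5 and 699 FPKM under CD and 655, 667 and 650.1 under HCD.

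HCD replicate 2 was set apart from its group in a subset of these genes, which were named after their values were seen. In 8 of the 39, HCD replicate 2 was at least 0.3 lower than the mean of HCD replicates 1 and 3 on the log2(FPKM + 1) scale, a distance that 12.7% of all tested genes reached. They were Srsf5, Srsf6, Srsf7, Srsf11, Hnrnph1, Hnrnph3, Hnrnpdl and Sf3b1. In 7 of these, all but Hnrnph3, CD replicate 2 was also the lowest CD library, as it was in 37.9% of all tested genes.

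Srsf5 was the clearest case, with 332, 291 and 333 FPKM under CD and 345, 215 and 383 under HCD. HCD replicate 2 had 58.9% of the mean of HCD replicates 1 and 3, and CD replicate 2 had 87.4% of the mean of CD replicates 1 and 3. With all libraries Srsf5 did not pass (log2 change -0.06, limma adjusted p = 0.854). Without HCD replicate 2 it was higher by 0.19 (limma adjusted p = 0.0489), and without replicate 2 of both diets it was higher by 0.13 without passing (limma adjusted p = 0.0797).

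Srsf6 had 138, 132 and 139.9 FPKM under CD and 129.9, 96.4 and 137 under HCD. Its log2 change was -0.19, and -0.05 without replicate 2 of both diets. Srsf11 had 36.2, 33.0 and 36.0 FPKM under CD and 34.4, 26.8 and 35.1 under HCD, with log2 changes of -0.13 and -0.05 in the same order. Hnrnpdl had 62.5, 56.2 and 62.5 FPKM under CD and 71.3, 53.6 and 71.7 under HCD. In all of them replicate 2 was the lowest library of its diet, and for Hnrnpdl the other HCD libraries were above every CD library. The opposite was seen in Sf3b5, where HCD replicate 2 was the highest library at 88.7 FPKM, against 71.5 and 68.6 in the other HCD libraries.

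Hnrnph1, whose product binds G tracts as that of Hnrnpf does, had 277, 250.1 and 277 FPKM under CD and 255, 176 and 274 under HCD. Its log2 change of -0.21 did not pass (limma adjusted p = 0.355) and was -0.06 without replicate 2 of both diets. Its close relative Hnrnph2 had 76.6, 79.9 and 82.3 FPKM under CD and 69.1, 76.2 and 69.1 under HCD. Replicate 2 was therefore the lowest HCD library for Hnrnph1 and the highest for Hnrnph2. Hnrnph2 did not pass (limma adjusted p = 0.089) but was lower without HCD replicate 2 (log2 change -0.20, limma adjusted p = 0.00603). Sf3b1, which encodes the SF3b subunit that clasps the branch point, had 80.0, 76.2 and 80.1 FPKM under CD and 82.5, 61.5 and 83.1 under HCD. Its change had no firm direction, at -0.07 with all libraries and 0.07 without HCD replicate 2 (limma adjusted p = 0.689 and 0.181).

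Across the 39 genes the distance of replicate 2 from replicates 1 and 3 in CD had a Pearson correlation of 0.72 (Spearman 0.59) with that in HCD, and across all tested genes the Pearson correlation was 0.29. The points share libraries, so these values describe the libraries and carry no test. Of the 39 genes, 18 were lowest in replicate 2 under HCD (46.2%) and 16 under CD (41.0%). These shares were near the 46.9% and 37.9% of all tested genes. In 11 members replicate 2 was lowest in both diets, a share that was not computed over all tested genes. Without HCD replicate 2, Hnrnpdl was higher too (log2 change 0.24, limma adjusted p = 0.00792), as was Hnrnpa0 (0.11, limma adjusted p = 0.0342), and Hnrnpa2b1, Hnrnpa3, Hnrnpab, Hnrnph2, Hnrnph3 and Sf3a3 were lower besides the 10 genes above.

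**Figure D4:**
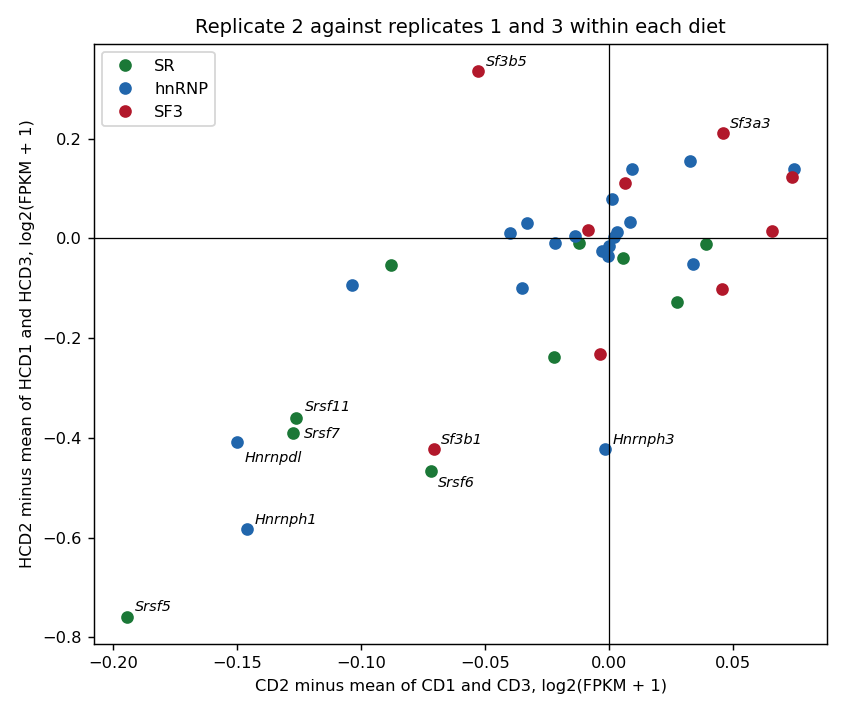
Distance of replicate 2 from the mean of replicates 1 and 3 in log2(FPKM + 1), under CD (horizontal) and under HCD (vertical), for the 39 genes coloured by family. Srsf5 lies lowest at -0.19 and -0.76, and most genes lie near 0 on both axes.

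Transcript length and log2 change had a Spearman correlation of -0.25 over 10613 tested genes (-0.15 without HCD replicate 2), longer transcripts being lower under HCD. Over the 39 members it was -0.03. These are correlations across genes within the same libraries, and genes are not independent replicates. The genes that fell had transcript lengths of 1664 to 7640 bases, with a median of 2642 against 2168 for the other members. With the length trend removed 7 of the 39 were called, all lower, beside 765 higher and 573 lower of all 10676 tested genes. The calls lost were those of Hnrnpm, Hnrnpr and Sf3b3. Annotated exons of another gene overlap 15 members on the opposite strand and 4 on the same strand, and the sources used here do not give the strand setting of the counting, so such reads cannot be told apart.

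Markers of other cells moved with diet in the same libraries. Of 12 listed myeloid progenitor genes 11 were tested, of which 8 rose and 1 fell, and their summed level was 970.1 to 993 FPKM under CD and 1751 to 1911 under HCD. Of 9 listed genes of mature neutrophils 6 were tested and 6 rose, with sums of 12.4 to 12.5 FPKM under CD and 40.4 to 48.7 under HCD, while Ltf, Mmp8 and Mmp9 stayed below 1 FPKM in every library. Of 15 immediate early genes, which respond to stimulation and also to cell handling, 14 rose, with sums of 3015 to 3235 FPKM under CD and 6087 to 7821 under HCD. Their part in the fall of the splicing factor genes was not tested, and the libraries give 1 level for all cells together.

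The B and plasma cell list summed to 66.9 to 80.7 FPKM under CD and 131 to 149 under HCD (1 higher and 1 lower of 5 tested from 9), with Ms4a1, Pax5 and Ebf1 below 1 FPKM in every library. The T and NK list summed to 105 to 110.3 and 129 to 150.3 FPKM (1 higher and 1 lower of 2 tested from 8), with Cd3e at 0 throughout and Cd3d, Cd3g, Cd8a and Ncr1 below 1. Monocyte and macrophage genes summed to 28.6 to 30.04 and 28.3 to 31.0 FPKM (2 higher and 3 lower of 6 tested from 9). Erythroid genes summed to 24.2 to 27.2 and 20.6 to 22.4 FPKM (0 higher and 1 lower of 4 tested from 9), with Hba-a2 and Alas2 below 1 FPKM. None of the 4 gate genes passed, and of 6 other stem and multipotent progenitor genes 1 rose and 1 fell of 5 tested. The part of these cells in the results was not tested either.

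The rest of the splicing machinery was described by 172 other genes in 10 lists, of which 164 were tested. Of these 6 rose and 22 fell, a share of 17.1% called beside the 13.9% of all tested genes, with a median log2 change of -0.09. Leaving out a library moved the 28 calls to between 6 (without CD replicate 1 or CD replicate 3) and 54 (without HCD replicate 2). They were 10 without CD replicate 2, 14 without HCD replicate 1 and 22 without HCD replicate 3. Of all tested genes, 4.11%, 5.21% and 4.81% were called without CD replicate 1, 2 or 3. The share was 6.66% without HCD replicate 1, 25.4% without HCD replicate 2 and 10.4% without HCD replicate 3. List counts below with a library left out stand beside these shares.

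The RNA-binding regulators related to hnRNPs held most of these calls. Of 40 tested from 45 listed, 15 fell and 4 rose, a share of 47.5% called beside 13.9% of all tested genes. The median log2 change was -0.10. Tardbp, which encodes TDP-43, fell from 54.2 ± 0.61 to 41.7 ± 1.22 FPKM (limma adjusted p = 0.00187). Fubp1, a binder of single-stranded DNA and of introns, fell from 36.5 ± 0.42 to 27.6 ± 1.16 FPKM (limma adjusted p = 0.00237). The largest moves in the list were upward, in the cold-inducible genes Rbm3 (80.0 ± 1.07 to 133 ± 5.25 FPKM, limma adjusted p = 5.83e-05) and Cirbp (44.3 ± 3.05 to 70.1 ± 3.49 FPKM, limma adjusted p = 0.00077). Counts in this list were 3 higher and 3 lower without CD replicate 1, 2 and 6 without CD replicate 2, 2 and 4 without CD replicate 3, 3 and 8 without HCD replicate 1 and 6 and 19 without HCD replicate 2.

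In the U4/U6.U5 tri-snRNP, the particle that brings the catalytic core, 3 of 24 tested genes fell and 0 rose, a share of 12.5% called beside 13.9% of all tested genes. At an unadjusted p under 0.05 by limma 9 were lower and 1 higher, beside 18.3% and 12.6% of all tested genes. Prpf8, which encodes the protein at the heart of the spliceosome, fell from 94.3 ± 0.77 to 81.1 ± 2.26 FPKM (limma adjusted p = 0.013). Eftud2, the GTPase gene of the U5 snRNP, fell from 70.5 ± 0.90 to 62.0 ± 2.74 FPKM (limma adjusted p = 0.0341, and 0.101 with TMM factors). Prpf3, a gene of the U4/U6 snRNP, fell from 18.2 ± 0.63 to 15.5 ± 0.77 FPKM (limma adjusted p = 0.0392, and 0.0604 with TMM factors). The replicate block gave 5 lower and 1 higher. The set without HCD replicate 2 gave 9 lower, beside 14.1% of all tested genes lower. No gene of the list was called by limma without CD replicate 1, 2 or 3, where 4.11%, 5.21% and 4.81% of all tested genes were. Without HCD replicate 1, 1 was called, beside 6.66% of all tested genes.

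Around the branch point and the 3′ splice site, where SF3 acts, 1 of 16 genes fell, a share of 6.25% called beside 13.9% of all tested genes. It was Snrpa1, the U2 snRNP A′ gene, at 69.4 ± 3.35 and 57.2 ± 3.66 FPKM (limma adjusted p = 0.0191). No gene of that list was called without CD replicate 1, CD replicate 3 or HCD replicate 1, and 3 were lower and 1 higher without HCD replicate 2. Of 17 SR-related genes 1 was called, a share of 5.88%. It was Tra2b, an exon inclusion activator, which fell from 124 ± 0.92 to 109.5 ± 6.79 FPKM (limma adjusted p = 0.0494, and 0.0787 with TMM factors). With the replicate block 3 of the 17 were lower, and 2 without HCD replicate 2. None of the 17 was called when any other single library was left out, with quantile normalization, with the length trend removed or with no filter. In the Prp19 complex and catalytic step list 2 of 27 rose and 1 fell, a share of 11.1% called beside the same 13.9%. Aqr, an intron-binding helicase gene, fell from 31.1 ± 1.07 to 25.8 ± 0.93 FPKM (limma adjusted p = 0.0141). Rbm22 rose from 52.1 ± 0.42 to 59.9 ± 2.37 FPKM (limma adjusted p = 0.0246), and Sugp1, whose product binds SF3B1, rose from 21.0 ± 0.41 to 24.4 ± 1.46 FPKM (limma adjusted p = 0.0446). All 3 calls were lost without CD replicate 1 or CD replicate 3. The list had 0 higher and 1 lower without CD replicate 2 or HCD replicate 3, 2 higher and 0 lower without HCD replicate 1, and 4 higher and 3 lower without HCD replicate 2.

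In the exon junction complex 1 of 6 genes fell, a share of 16.7% called beside 13.9% of all tested genes. It was Casc3, which fell from 28.8 ± 1.08 to 25.3 ± 0.35 FPKM (limma adjusted p = 0.0474). That call was lost with the replicate block (limma adjusted p = 0.0511), with TMM factors (limma adjusted p = 0.0812) and when any single library other than HCD replicate 2 was left out. By limma 0 of 8 SR kinase genes passed, 0 at an unadjusted p under 0.05. Without HCD replicate 2, 3 were higher, beside 11.3% of all tested genes. With the replicate block 1 SR kinase gene was higher. By limma 0 of 11 genes of U1 and 5′ splice site recognition passed, with 1 lower at an unadjusted p under 0.05, 1 lower with the block and 2 without HCD replicate 2. The same test called 0 of 7 Sm core genes (1 lower at an unadjusted p under 0.05) and 0 of 8 minor spliceosome genes (0 at an unadjusted p under 0.05, and 1 higher without HCD replicate 2).

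**Figure D5:**
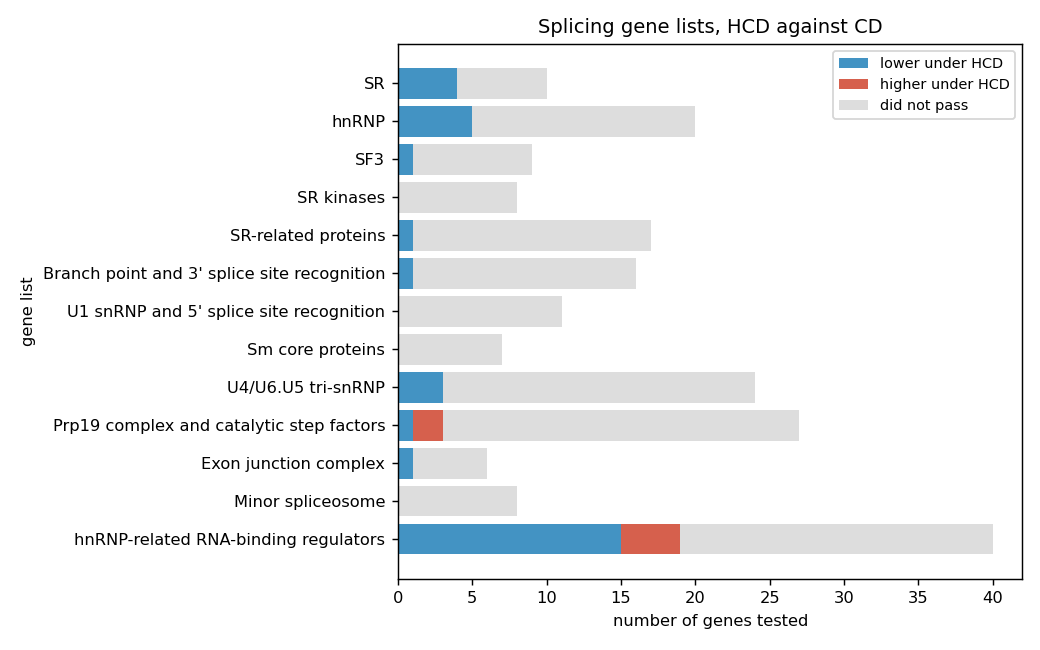
Number of tested genes in each family and list that were lower (blue), higher (red) or did not pass (grey) under HCD by limma at an adjusted p of 0.05. The hnRNP-related regulators hold 15 lower and 4 higher genes of 40, and the SR, hnRNP and SF3 families 4, 5 and 1 lower genes with none higher.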

How the data were processed

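RNA of sorted bone marrow cells was isolated with RNeasy Micro columns and made into stranded mRNA libraries, per the labels' protocols. Per the submitters' processing notes, the tools were fastp, HISAT2 and StringTie, with GRCm38 and mm10 as builds. Their versions, the annotation and the treatment of strand and of multiply matching reads are not stated there. The deposited values were taken as FPKM from the values themselves, because a header holds no more than the library's name. RPKM would look the same. Of 21878 rows, 27 had a symbol turned into a date (0.127% of the FPKM) and were left out.

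From these values, log2(FPKM + 1) was computed and tested with limma 3.58.1 in R 4.3.3, using trend and robust moderation of the variances, two-sided and unpaired, for genes of at least 1 FPKM in at least 3 libraries. The script was tested on simulated data with 200 changed genes. Those data held no outlying library, length trend or pairing, so that run does not cover these features. Because the values are not counts, no count model was used. Relative depth came from low genes: in 665 of 1255 (53.0%) all 6 values were whole multiples of 1 read within a tolerance of 0.02, and the absolute depth rests on 112 of these genes with a single annotated transcript. Transcript lengths (the median over a gene's basic coding transcripts) and positions are from GENCODE vM21 on GRCm38. Promoters are from RefSeq on GRCm38.p6.

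Deviations from the group means correlated by 0.103, 0.292 and 0.166 between same-numbered libraries of the 2 diets, all above the bound of 0.1, and by -0.25 to 0.0983 between others. By that rule the numbers may pair the libraries, although the labels do not say so. The value for number 1 was close to the 0.0983 between CD replicate 1 and HCD replicate 3. Deviations from a group mean sum to 0, so these values depend on one another. A fit with the replicate number as a block was run as an alternative. Other alternatives were quantile normalization, a lower pseudocount (0.1), a stricter filter (5 FPKM), none at all, TMM factors, removal of the length trend, HCD replicates 1 and 3 averaged, and each library left out. Leaving out replicate 2 of both diets was added after seeing the data.

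The members and lists were chosen with earlier results of these data known. Named in full are the members past the threshold, the highest of each family, the 3 nearest the threshold and up to 4 called genes a list; others are marked as chosen after their values were seen. Some single markers in the lists of other cell types are not reported here.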

Additional observations from a re-analysis of the deposited data

How the results depend on the processing

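The 10 calls among the 39 splicing factor genes became 7 with TMM factors, 7 with the length trend removed, 7 with HCD replicates 1 and 3 averaged, 8 with no filter, 10 with a pseudocount of 0.1 or a filter of 5 FPKM, 13 with quantile normalization and 15 without replicate 2 of both diets (14 lower, 1 higher), and ranged from 5 to 19 when 1 library was left out. Over all 10676 genes the 1488 calls became 1360 with TMM factors, 1338 with the length trend removed and 927 with HCD replicates 1 and 3 averaged. They were 1149 of 15603 genes with no filter, 1466 with a pseudocount of 0.1 and 1282 of 8286 genes with a filter of 5 FPKM. Quantile normalization gave 1650, and leaving out replicate 2 of both diets gave 2318 (1076 higher, 1242 lower). With 1 library left out the calls over all genes ranged from 439 to 2707. The 28 calls in the other splicing lists became 17 with HCD replicates 1 and 3 averaged, 18 with no filter and 45 without replicate 2 of both diets. They ranged from 6 to 54 with 1 library left out. With the replicate block 1873 genes were called, 11 of the 39 members (Hnrnph3 added) and 34 in the lists. For the members it changed no other call.

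Of 585 values of single members under 15 alternatives, 520 kept their direction and side of the threshold, 33 lost a call, 19 gained one and 13 changed sign, none of the latter among called members. Quantile normalization turned Hnrnpa1 (-0.10) and Hnrnpk (-0.026), and removal of the length trend turned Hnrnpul2 (0.013) and Sf3b1 (0.035). Without replicate 2 of both diets the changes were 0.0046 for Sf3a2, 0.05 for Sf3b1, 0.13 for Srsf5 and -0.11 for Sf3b5. With 1 library left out they ranged from -0.14 to 0.0058 for Sf3a2, -0.14 to 0.072 for Sf3b1, -0.22 to 0.19 for Srsf5 and -0.095 to 0.087 for Sf3b5. The cause was not tested. Fewer libraries leave less power by construction, and intervals from depth cover counting error only.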
